A study of Mus musculus with 40 samples.

Results

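Norrin signalling was followed through 8 genes in RNA-seq of whole mouse retinas: the ligand gene Ndp, the receptor genes Fzd4, Lrp5 and Tspan12, the effector genes Ctnnb1 and Lef1, and the target genes Axin2 and Apcdd1. They were taken by symbol and not by a filter on their values, although earlier results of these data were known. They make up 8 of 42037 gene symbols in the deposited tables. All 8 were among the 23495 genes that passed the filter on low counts and were tested. The series holds 40 libraries, 4 for each of 10 groups, all of strain C57BL/6J and taken at postnatal day 17 (P17) or 19 (P19). In oxygen-induced retinopathy (OIR), pups were kept in 75% oxygen between P7 and P12 and then returned to room air, which closes retinal vessels and later drives abnormal vessel growth. The 4 OIR groups of each age received 1 µl into the vitreous at P14. The injections held B20.4.1_LC10, a bispecific antibody to VEGFA and ANG-2, at 0.4 µg/µl, the anti-ANG-2 antibody LC10 at 0.2 µg/µl, the anti-VEGFA antibody B20.4.1 at 0.2 µg/µl, or control IgG at 0.4 µg/µl. Control mice without OIR (nOIR) formed the remaining group at each age. No genetic change is named for any group. The labels do not say whether nOIR eyes were injected, so OIR, injection and IgG cannot be told apart in those comparisons. Each sample was 1 retina, described as independent, and whether any came from the same mouse or litter is not stated, so p-values measure the spread between retinas.

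Norrin, the secreted protein made from Ndp, is released in the retina mainly by Müller glia and binds the receptor frizzled-4 together with its co-receptor LRP5 on endothelial cells. The tetraspanin TSPAN12 is part of this receptor complex and raises its response to norrin. The signal stabilises β-catenin, which enters the nucleus and acts with LEF1 and other TCF factors on genes such as Axin2 and Apcdd1. Loss of any of Ndp, Fzd4, Lrp5 or Tspan12 leaves the mouse retina without its deep vessel layers and weakens the blood-retina barrier. In people, variants of the same genes underlie Norrie disease and familial exudative vitreoretinopathy.

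Among the 8 genes, the lowest adjusted p-values were those of a receptor subunit and the ligand. Ndp and Tspan12 had higher means in OIR retinas with IgG than in nOIR retinas at both ages, by 1.37-fold to 1.72-fold. Apcdd1 had a lower mean under anti-ANG-2 at P19, with a fitted fold of 0.477 against IgG. None of these differences, and none of the 232 tests of the 8 genes in 29 comparisons, passed the threshold. That threshold was an adjusted p under 0.05 in edgeR's quasi-likelihood test, with Benjamini-Hochberg adjustment over all 23495 genes of a comparison. A gene past it is described below as called. An unadjusted p under 0.05 was found in 21 of the 232 tests, or 9.05%, against 9.45% of the tests of all genes. DESeq2 called Tspan12 in OIR with IgG against nOIR at P17, and Ndp and Axin2 in anti-ANG-2 OIR against nOIR at P19. In these comparisons edgeR called 2.36% and 10.7% of all genes, and the shares that DESeq2 called are not given here.

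Promoter sequences of Ndp and Tspan12 are shown because these genes had the 2 lowest adjusted p-values of the 8 in OIR with IgG against nOIR at P17. Each is the 250 bases before the RefSeq transcript start (GRCm38.p6), 5′ to 3′ on the gene's own strand, and capitals mark a match to the core of the TCF/LEF motif. The letters searched were CTTTGA and CTTTGT, on both strands, so that a match on the other strand reads TCAAAG or ACAAAG. The Ndp window is chrX:16911775-16912024 on the minus strand, and the Tspan12 window is chr6:21852534-21852783 on the minus strand. The bases after the start were found near the beginning of a GENCODE M21 transcript for Ndp, but not for Tspan12.
Ndp: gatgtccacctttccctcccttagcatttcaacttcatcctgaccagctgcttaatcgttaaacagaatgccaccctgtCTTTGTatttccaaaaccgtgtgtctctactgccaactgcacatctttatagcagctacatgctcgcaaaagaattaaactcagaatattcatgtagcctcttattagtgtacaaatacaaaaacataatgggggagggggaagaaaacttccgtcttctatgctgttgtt
Tspan12: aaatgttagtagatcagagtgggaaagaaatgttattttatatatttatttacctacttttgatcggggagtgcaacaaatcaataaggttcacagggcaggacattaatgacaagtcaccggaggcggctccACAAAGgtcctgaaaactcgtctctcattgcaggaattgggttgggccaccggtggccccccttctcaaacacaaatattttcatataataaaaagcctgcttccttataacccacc
The Ndp window held 1 match, from -171 to -166 relative to the start. The Tspan12 window also held 1, from -117 to -112 on the other strand. Of 32851 RefSeq promoter windows of the same length, 27.6% held at least 1 such match. The windows found for Fzd4, Ctnnb1 and Axin2 held none. No window was found for Lrp5, and Apcdd1 was left out of the search. Of 4 windows for Lef1, 1 had 3 matches and the others had none. The Lef1 window with matches, chr3:131156044-131156293, lies inside the gene's GENCODE span of 131110471 to 131224356. No Lef1 window had its start matched to a GENCODE transcript. A core of the hypoxia response element, searched as ACGTG or GCGTG on both strands without regard to overlap with other motifs, was found in neither the Ndp nor the Tspan12 window and in 38.6% of all windows. The Fzd4 window held 1, and the 2 overlapping Ctnnb1 windows held the same 1. The Lef1 window with the TCF/LEF matches held ACGTG on both strands at overlapping positions. A match is a string of letters and not a measured binding site.

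Photoreceptor RNA was abundant in every library, and markers of other cell types varied. Total expected counts ran between 9155091 and 25835055 per library. Levels in CPM are counts scaled to library size with edgeR's TMM factors. Summed CPM of 8 rod photoreceptor markers lay between 33139 and 90075 in every library, and none of the 8 was at 0 in all retinas of a group. Summed CPM of 16 endothelial markers lay between 121 and 269, and none of these was at 0 in all retinas of a group. In whole retinas, fewer cells of a type and less RNA per cell cannot be told apart. Summed Y-linked CPM was over 100 in all 4 retinas of OIR with IgG at P19 and of OIR with anti-VEGFA at P17, in no retina of OIR with the bispecific antibody at P19 or with anti-ANG-2 at P17, and in 2 of 4 in the other 6 groups. Ndp is X-linked. By this count OIR with IgG and nOIR were alike at P17 and unlike at P19. OIR with IgG and with the bispecific antibody at P19 were split completely.

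Levels were compared between genes in TPM, which counts transcripts per length. Ctnnb1 had the highest level, with a mean of 117 ± 24.1 TPM (SD, n = 40 retinas). Ndp followed with 15.4 ± 3.28 TPM, Tspan12 with 11.3 ± 2.94 TPM and Apcdd1 with 8.16 ± 3.72 TPM. Ndp exceeded Tspan12 in 36 of 40 retinas and in the mean of all 10 groups, and Tspan12 exceeded Apcdd1 in 32 of 40. The other 4 genes were low. Fzd4 averaged 1.1 ± 0.736 TPM, Axin2 0.894 ± 0.367 TPM, Lef1 0.666 ± 0.349 TPM and Lrp5 0.316 ± 0.312 TPM. Neighbours in this lower range changed places from retina to retina: Fzd4 exceeded Axin2 in 25 of 40 retinas, Axin2 exceeded Lef1 in 26 and Lef1 exceeded Lrp5 in 31. The ligand RNA was therefore above each receptor RNA on average, and Tspan12 RNA was far above Fzd4 and Lrp5 RNA in whole retina. These levels come from all cell types together and do not give proportions within the receptor complex.

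**Figure D1:**
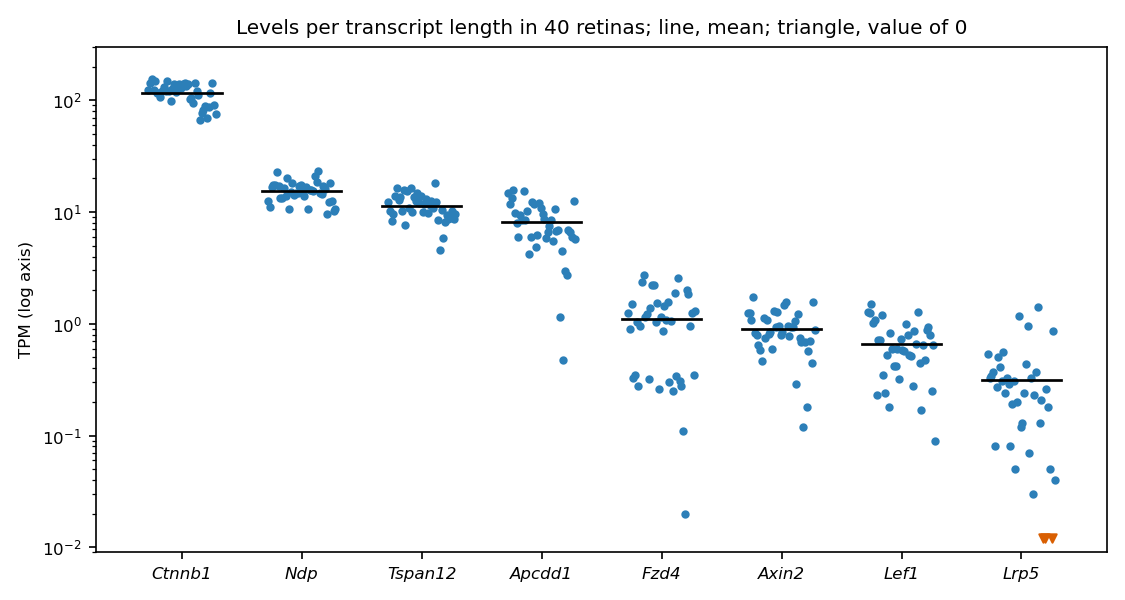
Levels of the 8 genes in TPM on a log axis, 1 point per retina (40 per gene), with the mean as a line and values of 0 as triangles. Ctnnb1 lies around 117 TPM, Ndp, Tspan12 and Apcdd1 between 8.16 and 15.4 TPM on average, and Fzd4, Axin2, Lef1 and Lrp5 near or below 1.1 TPM; the Fzd4 points leave a gap between 0.35 and 0.86 TPM.

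The spread between retinas of a group was widest for the low receptor genes. The pooled within-group coefficient of variation was 16.1% for Ctnnb1, 23.1% for both Ndp and Tspan12, and 35.4% for both Apcdd1 and Axin2. It was 48% for Lef1, 70.2% for Fzd4 and 94.2% for Lrp5. Counting error alone would give 1.4% for Ctnnb1, at 5110 counts per library, and 24.5% for Lrp5, at 16.6 counts. The spread between libraries holds amplification and handling as well as differences between retinas, which cannot be told apart here. The median standard error of a log2 fold change over the 8 main comparisons was 0.24 for both Ndp and Tspan12, against 0.79 for Fzd4 and 1.06 for Lrp5.

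**Figure D2:**
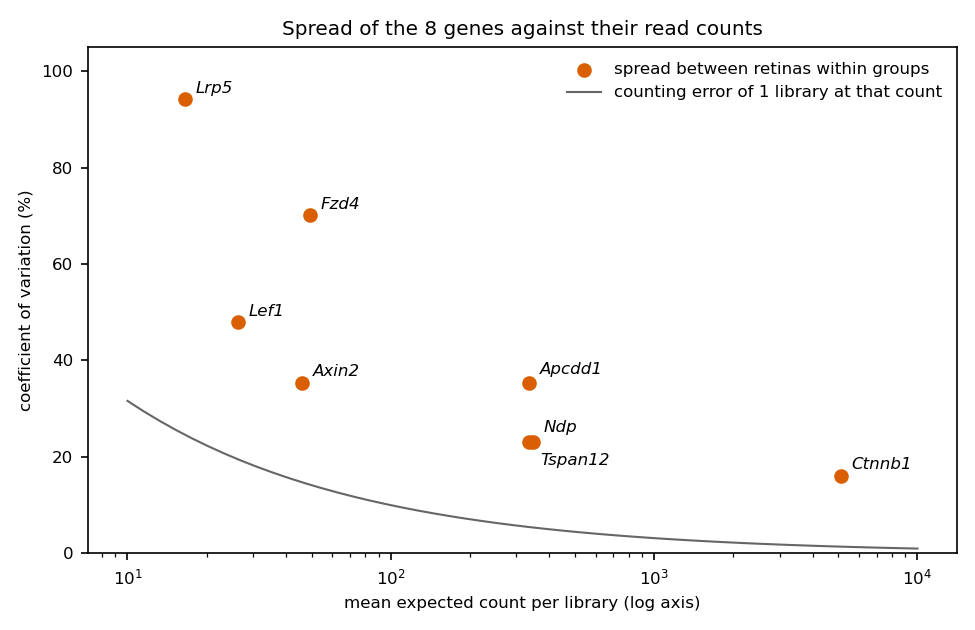
Within-group coefficient of variation (%) against the mean expected count per library (log axis), 1 point per gene; the line is the counting error at each count. All 8 points lie above the line, Lrp5 at 94.2% and Ctnnb1 at 16.1%.

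The first question was whether the pathway's RNA differs in the disease model itself, OIR with IgG against nOIR. At P17 0 of the 8 genes were called, where edgeR called 555 of 23495 genes, or 2.36%, and 2 of the 8 had an unadjusted p under 0.05, as did 3699 of all genes. At P19 0 of 8 were called, against 0.919% of all genes, and none of the 8 had an unadjusted p under 0.05. Of the 8 fold changes, 4 were above 0 on the log2 scale at P17, with a median of -0.04 (all genes, -0.05), and 3 at P19, with a median of -0.16 (all genes, -0.05). Groups that did not overlap, meaning that all 4 retinas of one lay above all 4 of the other, were found for 2 of the 8 genes at P17 (Tspan12 and Lef1), where 11.4% of all genes were so separated. At P19 this held for 1 of 8 (Ndp), against 11% of all genes.

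Ndp is located on chromosome X at 16885521 to 16911774 of GRCm38 (minus strand). At P17, Ndp had 20.5, 30.4, 24.8 and 17.8 CPM in OIR retinas with IgG, against 14.9, 12.5, 13.4 and 18.7 CPM in nOIR retinas. Of the 4 IgG retinas 3 lay above all nOIR retinas, and the lowest lay below the highest nOIR retina. The fitted fold was 1.57 (log2 0.65, standard error 0.24, 95% interval 0.17 to 1.14, adjusted p = 0.14 in edgeR). At P19, Ndp had 24.8, 20.6, 21.9 and 24.5 CPM with IgG, against 16.9, 16.8, 20.3 and 12.1 CPM in nOIR. The groups did not overlap at P19, although the lowest IgG retina and the highest nOIR retina were close, and the fold was 1.39 (log2 0.47, interval -0.01 to 0.95, adjusted p = 0.41 in edgeR). With Y-linked expression as a covariate, the P19 fold was 1.29 and the P17 fold 1.57, and with covariates for pigment epithelium and lens RNA the P17 fold was 1.33 (adjusted p = 0.89). In TPM the P17 means were 17.6 ± 3.87 with IgG and 14.4 ± 3.12 in nOIR, and on that scale the fold by limma-trend was 1.21 (log2(TPM + 1), adjusted p = 0.43), where the median of all genes stood at -0.22 on the log2 scale, against -0.05 in edgeR.

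Tspan12, on chromosome 6 at 21771395 to 21852515 (minus strand), had the lowest adjusted p of the 8 genes in any comparison. At P17 it had 21.4, 28.7, 24.4 and 23.9 CPM in OIR retinas with IgG, against 19.6, 15.4, 8.87 and 13.5 CPM in nOIR retinas. All 4 IgG retinas lay above all 4 nOIR retinas, with a mean of 24.6 ± 3.03 against 14.3 ± 4.43 CPM (SD, n = 4 each). The fold was 1.72 (log2 0.78, standard error 0.24, interval 0.29 to 1.27), and the adjusted p of 0.078 in edgeR missed the threshold. The call depended on the setting. DESeq2 gave an adjusted p of 0.037 and edgeR without the first nOIR retina gave 0.035, whereas edgeR with covariates for pigment epithelium and lens RNA gave a fold of 1.31 and an adjusted p of 0.89. With those covariates edgeR called 70 of all genes in this comparison. At P19 Tspan12 had 24.2, 21.5, 20.3 and 27.9 CPM with IgG, against 14.5, 18.9, 20.5 and 14.7 CPM in nOIR. The groups overlapped by 1 retina, and the fold was 1.37 (log2 0.45, interval -0.04 to 0.94, adjusted p = 0.45 in edgeR). The difference of the OIR effects between ages was not called for either gene (log2 -0.33, interval -1.02 to 0.37, for Tspan12, and -0.18, interval -0.86 to 0.50, for Ndp).

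Summed markers of several cell types differed in the same comparison, given here as ranges without a test. Summed CPM of 10 Müller glia markers lay between 5127 and 5604 in OIR with IgG and between 2672 and 4996 in nOIR at P17, and between 5376 and 6271 with IgG and 3186 and 3893 in nOIR at P19. Endothelial markers summed to 206 to 269 CPM with IgG and 183 to 231 in nOIR at P17, and to 179 to 249 CPM with IgG and 121 to 183 in nOIR at P19. The 12 pigment epithelium markers, from tissue next to the retina, summed to 985 to 1917 CPM with IgG and 313 to 616 in nOIR at P17, and to 1048 to 1434 CPM with IgG and 503 to 1425 in nOIR at P19. The pigment epithelium median at P19 was 1162 CPM in both groups. Ranges without overlap were also seen for 10 microglia markers, at 268 to 433 CPM with IgG and 74.2 to 126 in nOIR at P17, and 254 to 342 with IgG and 77.7 to 115 in nOIR at P19. The same held for 8 pericyte markers, at 133 to 154 CPM with IgG and 74 to 92.2 in nOIR at P17, and 117 to 153 with IgG and 65.5 to 83.1 in nOIR at P19. Rod markers summed to 43341 to 51811 CPM with IgG and 33139 to 41334 in nOIR at P17. At P19 the rod ranges overlapped, at 44127 to 62855 CPM with IgG (median 49000) and 50851 to 57741 in nOIR (median 55739). None of these markers was at 0 in all 4 retinas of a group. Their part in the Ndp and Tspan12 values was not tested. The covariate fit given above used pigment epithelium and lens markers alone. Since the pigment epithelium sums of these groups did not overlap at P17, that fit cannot tell such RNA and OIR apart. Within groups, the relation of lowest permutation p was that of Tspan12 with the mean log2 CPM of the Müller markers. In that mean each marker weighs the same, unlike in the sums. Pearson r was 0.596 and Spearman rho 0.427 over 40 retinas (permutation p = 0.0034 and 0.027, adjusted p = 0.17 and 0.36 over 52 relations). Without the 2 outermost retinas r was 0.532. The relation was not particular to Tspan12. With the same markers r was 0.571 for Ctnnb1 (rho 0.433, adjusted p = 0.17 and 0.36) and 0.423 for Ndp (rho 0.247, adjusted p = 0.29 and 0.58). Tspan12 with the pigment epithelium markers had r = 0.453 (rho 0.409, adjusted p = 0.26 and 0.36). None of the 52 within-group relations among the 8 genes and the Müller, endothelial and pigment epithelium lists passed the adjustment.

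**Figure D3:**
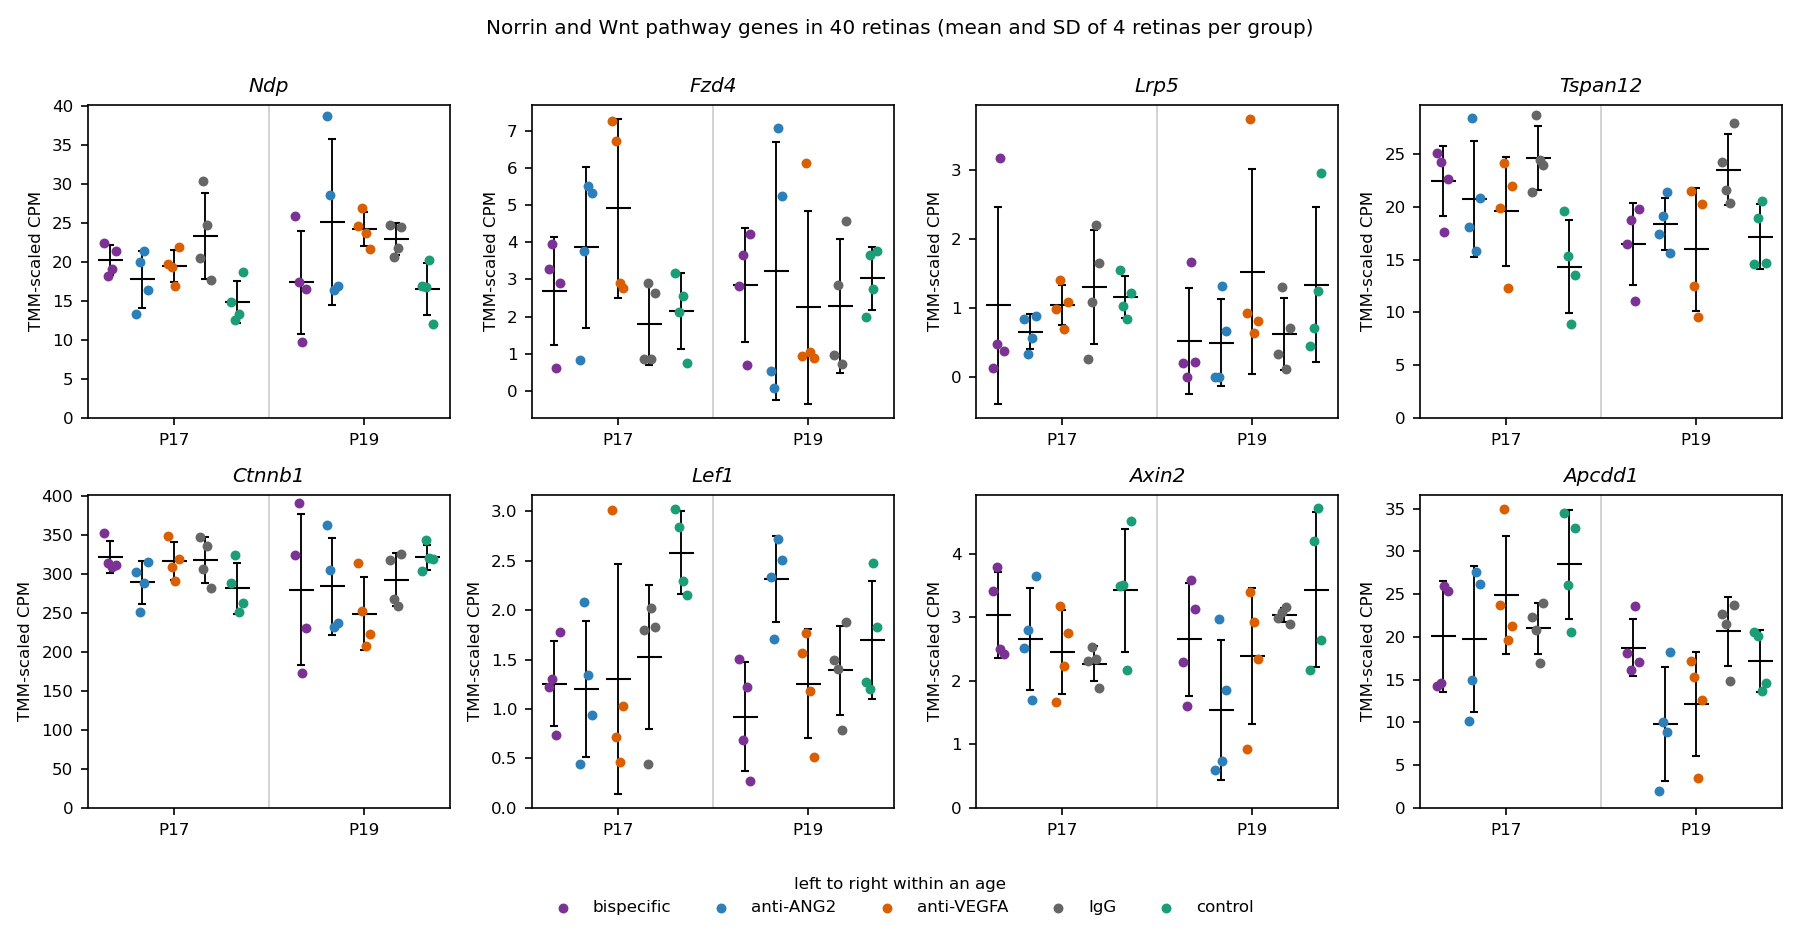
TMM-scaled CPM of each gene in the 40 retinas, by age, with bispecific, anti-ANG-2, anti-VEGFA, IgG (all OIR) and nOIR control groups from left to right; points are retinas, bars the mean and SD of 4. At P17 all Tspan12 values with IgG lie above all nOIR values, and at P19 Apcdd1 is lowest with anti-ANG-2, at a mean of 9.82 CPM.

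Fzd4, the norrin receptor (chromosome 7, 89404355 to 89413134, plus strand), showed a pattern that did not follow the groups. Its level was at or below 0.35 TPM in 13 of 40 retinas and at or above 0.86 TPM in the other 27, with none between. The step of 2.46-fold between neighbouring values was larger than for any of the other 7 genes, where the largest step with at least 5 retinas on each side was 1.5-fold. The 13 low retinas came from 8 of the 10 groups. They were 3 retinas of OIR with anti-VEGFA at P19, 2 each of OIR with IgG at P17, OIR with IgG at P19 and OIR with anti-ANG-2 at P19, and 1 each in 4 further groups. Gene-level values do not show which reads make up either range. At P17 Fzd4 had 0.857, 2.9, 0.855 and 2.62 CPM with IgG, against 3.16, 2.13, 2.55 and 0.741 CPM in nOIR. The groups overlapped and the interval was wide (log2 -0.25, interval -1.85 to 1.35, adjusted p = 0.93 in edgeR). At P19 the log2 difference was -0.40 (interval -1.99 to 1.19, adjusted p = 0.9).

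Lrp5, the co-receptor (chromosome 19, 3584828 to 3686564, minus strand), was close to the detection floor. The count was 0 in 3 retinas, 2 of OIR with anti-ANG-2 and 1 with the bispecific antibody at P19, where 3 counts, the limit that a count of 0 allows for counting error, would be 0.171 to 0.226 CPM. At P17 it had 0.257, 1.09, 2.21 and 1.65 CPM with IgG, against 1.55, 1.02, 0.8291 and 1.21 CPM in nOIR. The intervals of its OIR differences, -1.93 to 2.28 at P17 and -3.25 to 1.03 at P19 on the log2 scale, leave changes of several-fold in either direction undetected.

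Ctnnb1, the gene of β-catenin (chromosome 9, 120929216 to 120960507, plus strand), was the most precisely measured of the 8. It averaged 319 ± 29.5 CPM with IgG and 282 ± 32.5 CPM in nOIR at P17, and 293 ± 33.7 CPM with IgG and 322 ± 16.3 CPM in nOIR at P19 (SD, n = 4 each). The log2 differences were 0.18 (interval -0.15 to 0.51, adjusted p = 0.67 in edgeR) and -0.13 (interval -0.46 to 0.20, adjusted p = 0.82). These intervals exclude changes of the size seen for Tspan12 at P17. On the TPM scale the P17 means stood in the other order, at 122 ± 18 with IgG and 137 ± 16 in nOIR. Ctnnb1 overlaps the antisense gene 4930593C16Rik and the neighbour Ulk4 on the other strand, and since use of strand in counting is not stated, their reads cannot be told apart where they overlap. The same holds for Tspan12 with Gm30270, Lef1 with Gm43352 and Axin2 with Gm11670.

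Lef1, a TCF/LEF factor that is itself induced by Wnt signals in endothelium (chromosome 3, 131110471 to 131224356, plus strand), had 1.8, 0.443, 2.02 and 1.83 CPM with IgG at P17, against 3.02, 2.84, 2.3 and 2.15 CPM in nOIR. All 4 IgG retinas lay below all 4 nOIR retinas, yet the fitted difference had a wide error (log2 -0.76, interval -2.01 to 0.49, adjusted p = 0.61 in edgeR). The other antibody groups lay low at this age as well. Lef1 averaged 1.26 ± 0.427 CPM with the bispecific antibody, 1.2 ± 0.691 with anti-ANG-2, 1.31 ± 1.16 with anti-VEGFA and 1.52 ± 0.728 with IgG, against 2.58 ± 0.42 CPM in nOIR, the same nOIR retinas in each case. At P19 the means were 1.39 ± 0.452 with IgG and 1.7 ± 0.595 CPM in nOIR (log2 -0.28, interval -1.54 to 0.97).

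Axin2, which encodes a scaffold of the complex that destroys β-catenin and is a general read-out of the pathway (chromosome 11, 108920349 to 108950783, plus strand), had 2.31, 2.54, 2.34 and 1.89 CPM with IgG at P17, against 3.5, 3.51, 2.17 and 4.51 CPM in nOIR. All IgG retinas lay below 3 of the 4 nOIR retinas (log2 -0.59, interval -1.53 to 0.35, adjusted p = 0.6 in edgeR). At P19 the IgG retinas, with 2.99, 3.08, 3.15 and 2.9 CPM, lay inside the nOIR range of 2.17 to 4.71 CPM. Apcdd1, a membrane inhibitor of Wnt signals that barrier endothelium expresses under norrin, is encoded on chromosome 18 at 62922231 to 62961179 (plus strand). It had 22.4, 20.8, 17.01 and 23.9 CPM with IgG at P17, against 34.5, 26.1, 20.6 and 32.8 CPM in nOIR. The groups overlapped (log2 -0.44, interval -1.18 to 0.30, adjusted p = 0.62 in edgeR), and at P19 the log2 difference was 0.27 (interval -0.47 to 1.01, adjusted p = 0.85).

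The second question was whether blocking VEGFA, ANG-2 or both altered the pathway's RNA in OIR, and all 3 antibodies were compared with the same IgG retinas of their age. At P17 0 of 8 genes were called with the bispecific antibody, with anti-ANG-2 or with anti-VEGFA, and the background was 0% of all genes in each of the 3. No gene of the 8 had an unadjusted p under 0.05 there. At P19 0 of 8 were called with the bispecific antibody against 0.0468% of all genes, 0 with anti-ANG-2 against 0.0979%, and 0 with anti-VEGFA against 0%. The numbers with an unadjusted p under 0.05 at P19 were 1, 2 and 2 of 8 in the same order of antibodies, beside 8.24%, 12.5% and 11.1% of all genes. In the 12 comparisons of the study where edgeR called no gene at all, between 657 and 2725 genes had an unadjusted p under 0.05 and DESeq2 called between 2 and 419.

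Under anti-ANG-2 at P19 the target genes had their lowest group means. Apcdd1 had 2.04, 10.1, 8.9 and 18.2 CPM with anti-ANG-2, against 22.6, 21.5, 14.8 and 23.8 CPM with IgG. Of the 4 anti-ANG-2 retinas 3 lay below all IgG retinas and 1 lay within their range, and the fold was 0.477 (log2 -1.07, standard error 0.37, interval -1.82 to -0.31, adjusted p = 0.2 in edgeR). Without the fourth anti-ANG-2 retina the adjusted p was 0.035 and the fold 0.34, and without the libraries with outlying TMM factors, which include the first anti-ANG-2 retina, the fold was 0.602 and the adjusted p 0.48. Axin2 had 0.604, 2.97, 0.742 and 1.85 CPM with anti-ANG-2, against 2.99, 3.08, 3.15 and 2.9 CPM with IgG. Here 3 of 4 retinas lay below all IgG retinas (fold 0.513, log2 -0.96, interval -1.92 to -0.01, adjusted p = 0.39). Lef1 stood on the other side, with 2.34, 1.71, 2.72 and 2.51 CPM with anti-ANG-2 and 1.5, 1.4, 0.788 and 1.88 CPM with IgG (log2 0.73, interval -0.52 to 1.99, adjusted p = 0.68). Rod markers summed to 64491 to 90075 CPM with anti-ANG-2 and 44127 to 62855 with IgG, without overlap, and endothelial markers to 138 to 187 CPM with anti-ANG-2 and 179 to 249 with IgG. None of these was at 0 in all 4 retinas of a group, and their part in the Apcdd1 and Axin2 values was not tested. The change of the anti-ANG-2 effect between ages was -0.98 for Apcdd1 (interval -2.03 to 0.07, adjusted p = 0.49) and -1.19 for Axin2 (interval -2.53 to 0.15, adjusted p = 0.51) on the log2 scale.

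With anti-VEGFA at P19 Apcdd1 had 17.2, 15.3, 3.55 and 12.6 CPM, against the same IgG values (fold 0.589, log2 -0.76, interval -1.51 to -0.02, adjusted p = 0.44 in edgeR). The ranges overlapped. Tspan12 had 21.5, 12.5, 9.54 and 20.3 CPM with anti-VEGFA, against 24.2, 21.5, 20.3 and 27.9 CPM with IgG. Its ranges overlapped too, and 2 of the 4 anti-VEGFA retinas lay far below all IgG retinas (fold 0.681, log2 -0.56, interval -1.05 to -0.06, adjusted p = 0.4). With the bispecific antibody Tspan12 had 16.4, 18.7, 11.04 and 19.8 CPM, and all 4 retinas lay below all 4 IgG retinas (fold 0.703, log2 -0.51, interval -1.0 to -0.02, adjusted p = 0.59). This was the only one of the 8 genes whose groups did not overlap there, where 3.78% of all genes were so separated. Y-linked expression split these groups completely as well, and with it as a covariate the Tspan12 fold was 0.705. Because the split was complete, that fit cannot tell Y-linked expression and treatment apart in this comparison. Summed Müller glia markers were 2802 to 6101 CPM with the bispecific antibody and 3317 to 4851 CPM with anti-VEGFA, against 5376 to 6271 CPM with IgG, and their part in the Tspan12 values was not tested. At P17 Tspan12 differed from IgG by a log2 of -0.14 with the bispecific antibody (interval -0.62 to 0.35), -0.24 with anti-ANG-2 (interval -0.73 to 0.24) and -0.33 with anti-VEGFA (interval -0.82 to 0.16).

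Ndp was not called against IgG with any of the antibodies at either age. At P19 it averaged 17.4 ± 6.61 CPM with the bispecific antibody, 25.2 ± 10.7 with anti-ANG-2 and 24.2 ± 2.19 with anti-VEGFA, against 23 ± 2.03 CPM with IgG (SD, n = 4 each). The log2 differences from IgG were -0.39 (interval -0.87 to 0.09), 0.13 (interval -0.34 to 0.61) and 0.08 (interval -0.40 to 0.56) in that order. The anti-ANG-2 retinas were split, with 38.8 and 28.6 CPM in 2 and 16.4 and 16.96 CPM in the other 2, and without the libraries with outlying TMM factors the log2 difference turned to -0.15, and in limma-trend on log2(TPM + 1) to -0.30. With the Y-linked covariate the bispecific difference was -0.12, in a comparison that Y-linked expression split completely, so the 2 cannot be told apart. At P17 the means were 20.3 ± 1.95, 17.8 ± 3.66 and 19.5 ± 2.04 CPM for the same antibodies, against 23.4 ± 5.53 CPM with IgG, and the intervals of these log2 differences lay between -0.88 and 0.27.

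The receptor and effector genes gave no called difference from IgG. For Fzd4 the largest was with anti-VEGFA at P17, with 7.26, 6.73, 2.92 and 2.76 CPM against 0.857, 2.9, 0.855 and 2.62 CPM with IgG. The ranges overlapped by 1 retina of each group (fold 2.72, log2 1.44, interval -0.17 to 3.06, adjusted p = 1 in edgeR). For Lrp5 the largest was with anti-VEGFA at P19 (log2 1.29, interval -0.86 to 3.44, adjusted p = 0.69), where 1 retina at 3.74 CPM stood above 3 between 0.627 and 0.928 CPM. For Ctnnb1 no antibody differed from IgG by more than 0.23 on the log2 scale, and the interval of that difference, with anti-VEGFA at P19, was -0.56 to 0.10.

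**Figure D4:**
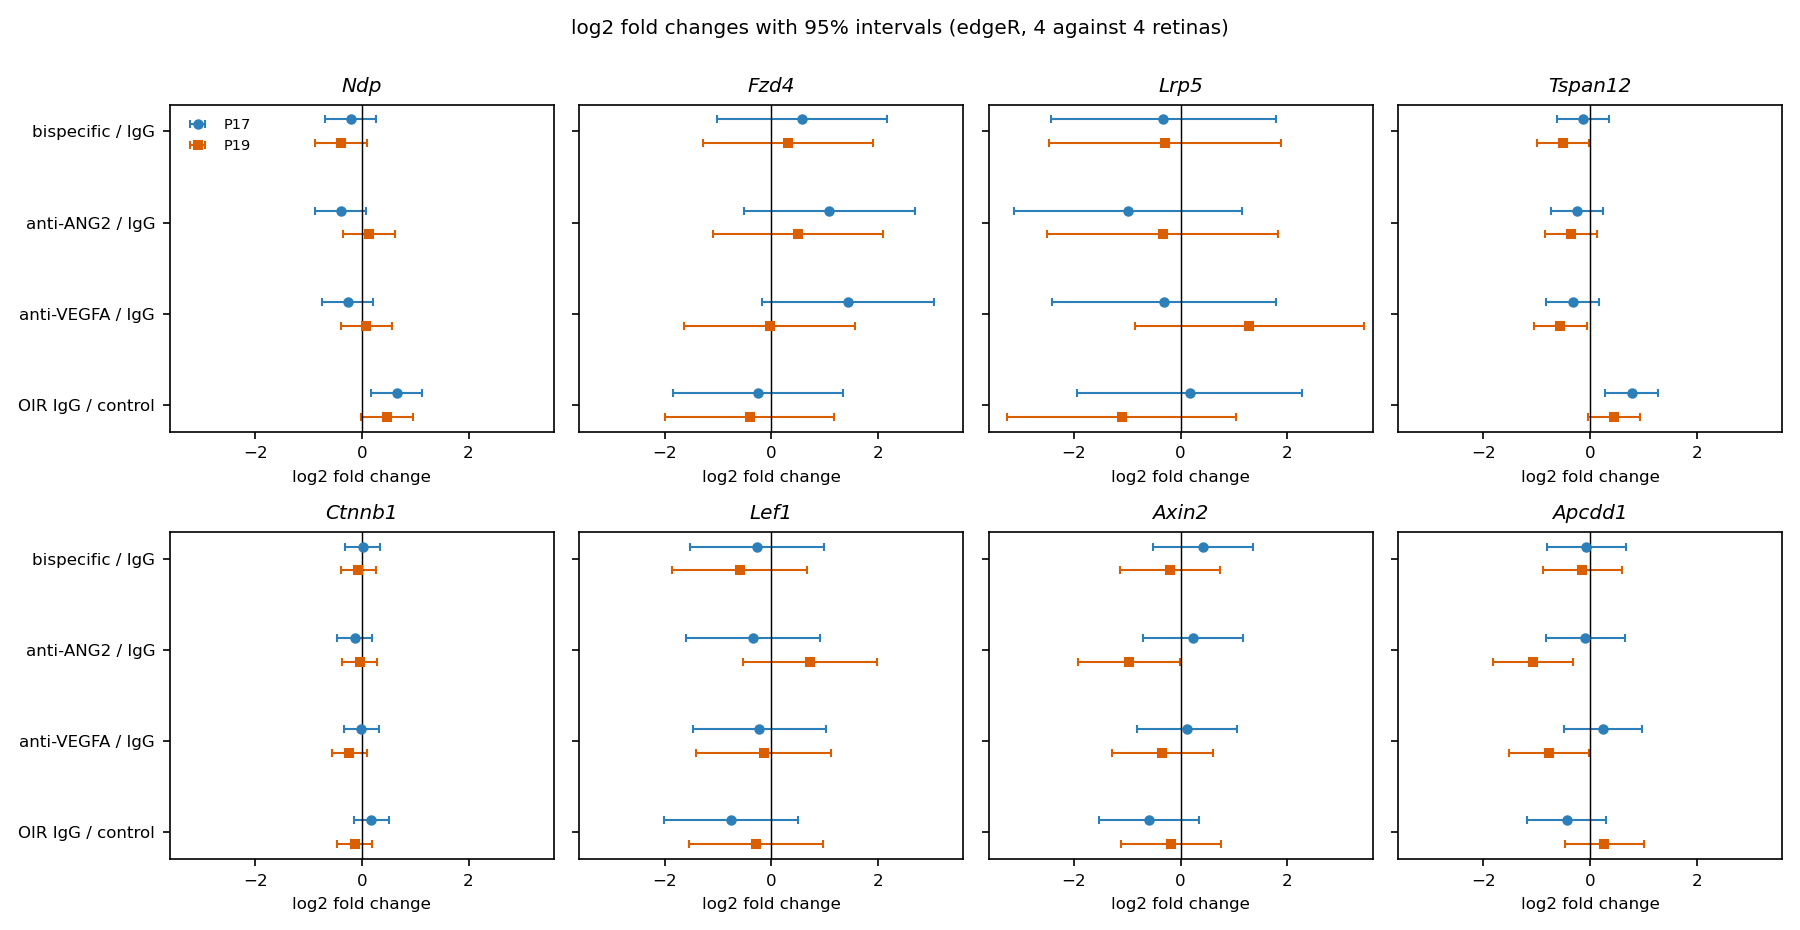
log2 fold changes of the 8 genes with 95% intervals in the 8 main comparisons (circles P17, squares P19; positive means higher in the group named first). The intervals are narrow for Ctnnb1 and wide for Fzd4 and Lrp5; 7 of them exclude 0, namely Tspan12 and Ndp in OIR with IgG at P17 and, at P19, Apcdd1 and Axin2 with anti-ANG-2, Apcdd1 and Tspan12 with anti-VEGFA and Tspan12 with the bispecific antibody, although no adjusted p passed the threshold.

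Antibody-treated OIR retinas were also set against nOIR, which asks how far the treated retinas stood from control retinas. These comparisons share the nOIR retinas with each other and with the IgG comparison. At P17 0 of 8 genes were called with the bispecific antibody (0.834% of all genes), with anti-ANG-2 (0.953%) or with anti-VEGFA (0.643%). At P19 0 of 8 were called with the bispecific antibody (0.443% of all genes), with anti-ANG-2 (10.7%) or with anti-VEGFA (4.73%). An unadjusted p under 0.05 was found for 1, 1 and 0 of 8 at P17 (10.8%, 9.67% and 10.3% of all genes) and for 0, 3 and 2 of 8 at P19 (10.8%, 22.3% and 17.5%), in the same order. In anti-ANG-2 OIR against nOIR at P19 the 3 were Ndp (log2 0.61, interval 0.13 to 1.09, adjusted p = 0.1), Axin2 (log2 -1.14, interval -2.10 to -0.18, adjusted p = 0.13) and Apcdd1 (log2 -0.80, interval -1.56 to -0.05, adjusted p = 0.19). This comparison depended on the scale. On log2(TPM + 1) with limma-trend the median of all genes stood at -0.31, against -0.06 in edgeR, and on that scale Ctnnb1 (log2 -0.76, adjusted p = 0.00074), Axin2 (-0.68, 0.014) and Apcdd1 (-1.24, 0.012) were called lower. Ndp, called higher there by DESeq2 (adjusted p = 0.046), averaged 13.8 ± 3.54 TPM with anti-ANG-2 and 14.1 ± 2.64 TPM in nOIR (SD, n = 4 each). In edgeR, Ndp was called without the third or the fourth anti-ANG-2 retina (adjusted p = 0.043 and 0.035), Axin2 without the second (0.032) and Apcdd1 without the fourth (0.021). On the same scale, anti-VEGFA OIR against nOIR at P19 gave a lower call for Ctnnb1 (log2 -0.61, adjusted p = 0.012, against -0.37 and 0.22 in edgeR).

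Groups without overlap against nOIR were found for Lef1 with the bispecific antibody at P17 (7.88% of all genes) and with anti-ANG-2 at P17 (7.98%), both below nOIR. Ndp with anti-VEGFA at P19 had 24.6, 26.9, 23.7 and 21.6 CPM, all above the nOIR retinas at 16.9, 16.8, 20.3 and 12.1 CPM (12% of all genes), with a fold of 1.47 (log2 0.55, interval 0.07 to 1.03, adjusted p = 0.2 in edgeR).

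Age was compared within each treatment, P19 against P17. There were 0 of 8 genes called in OIR with the bispecific antibody (0.0298% of all genes), with anti-ANG-2 (4.83%), with anti-VEGFA (0%) and with IgG (0.00851%), and in nOIR (0.0979%). An unadjusted p under 0.05 was found for 2 of 8 with anti-ANG-2 (18.2% of all genes) and for 2 with anti-VEGFA (9.11%), and for none in the other 3. Apcdd1 was lower at P19 in the nOIR retinas, with 20.5, 20.1, 13.7 and 14.6 CPM at P19, against 34.5, 26.1, 20.6 and 32.8 CPM at P17. The groups did not overlap (5.38% of all genes), and the log2 difference was -0.73 (interval -1.47 to 0.01, adjusted p = 0.84 in edgeR). The same held in OIR with anti-VEGFA, where 3.55% of all genes were separated (log2 -1.03, interval -1.78 to -0.28, adjusted p = 0.39). With anti-ANG-2 the log2 difference was -1.0 (interval -1.76 to -0.25, adjusted p = 0.12, and 0.011 without anti-ANG-2 replicate 4 at P19), and with IgG it was -0.02 (interval -0.76 to 0.71). Axin2 in OIR with IgG was above at P19 in all retinas, at 2.99, 3.08, 3.15 and 2.9 CPM against 2.31, 2.54, 2.34 and 1.89 CPM at P17 (3.77% of all genes), with a log2 difference of 0.41 (interval -0.52 to 1.35, adjusted p = 1).

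Direct comparisons between antibodies called none of the 8 genes. The bispecific antibody against anti-ANG-2 gave 0 of 8 at P17 (0% of all genes) and at P19 (0%), and against anti-VEGFA 0 of 8 at P17 (0%) and at P19 (0.0553%). Anti-VEGFA against anti-ANG-2 gave 0 of 8 at P17 (0%) and at P19 (0.238%). The bispecific antibody against anti-ANG-2 at P19 had 3 of 8 genes with an unadjusted p under 0.05 (11.6% of all genes), and the other 5 comparisons had none. Lef1 had 1.51, 0.685, 1.23 and 0.273 CPM with the bispecific antibody, against 2.34, 1.71, 2.72 and 2.51 CPM with anti-ANG-2. The groups did not overlap (2.59% of all genes), with a fold of 0.399 (log2 -1.33, interval -2.61 to -0.04, adjusted p = 0.41 in edgeR). Apcdd1 was above with the bispecific antibody (fold 1.9, log2 0.92, interval 0.17 to 1.68, adjusted p = 0.29, and 0.039 without the fourth anti-ANG-2 retina), and Ndp was below (fold 0.694, log2 -0.53, interval -1.01 to -0.04, adjusted p = 0.37). Over all 25 pairwise comparisons, 11 of 200 gene and comparison pairs had groups without overlap (all genes, 6.12%), a share close to the background.

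Whether an effect changed with age was tested with interaction terms. None of the 8 genes was called for the bispecific effect (0% of all genes), the anti-ANG-2 effect (0%), the anti-VEGFA effect (0%) or the OIR effect (0.00426%), and none had an unadjusted p under 0.05. Apcdd1 with anti-VEGFA had the interaction of lowest p (log2 -1.01, interval -2.06 to 0.04, adjusted p = 1 in edgeR).

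The rest of the pathway was read from 91 other Wnt genes in the tables, of which 88 were tested: ligands, receptors, secreted and membrane inhibitors, cytoplasmic components and nuclear factors. In OIR with IgG against nOIR at P17, 0 of 88 were called higher and 1 lower (1.14%, against 2.36% of all genes), with a median log2 change of -0.10 (all genes, -0.05). Both directions make up these shares, and of all 23495 genes 59 were called lower and 496 higher. At P19, and in all 6 comparisons of an antibody with IgG, 0 of 88 were called in either direction. In anti-ANG-2 OIR against nOIR at P19, 7 of 88 were called lower and 0 higher (7.95%, against 10.7% of all genes), with a median of -0.28 (all genes, -0.06). Most of the 10.7% were higher calls, with 857 of 23495 genes called lower and 1659 higher. In anti-VEGFA OIR against nOIR at P19, 2 of 88 were called lower and 0 higher (2.27%, against 4.73%). Here 562 of 23495 genes were called lower and 549 higher.

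The 1 gene called at P17 was Wif1, which encodes a secreted inhibitor that binds Wnt proteins. It had 0 counts in all 4 retinas of OIR with IgG, against 59, 84, 37 and 18 counts in nOIR (2.82 CPM on average), which is at least 19.9-fold lower if each IgG library is set at 3 counts (adjusted p = 0.023 in edgeR). At P19 the groups overlapped. The count was then 16, 19, 2 and 36 with IgG, against 1, 0, 5 and 21 in nOIR (adjusted p = 0.8). Every IgG count at P17 was 0 whichever library was left out, yet the call was lost without any 1 of the 4 IgG retinas or without the third nOIR retina (adjusted p between 0.051 and 0.093), with the covariates for pigment epithelium and lens RNA (0.4) and without the libraries rich in lens crystallins (0.071).

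Each list was also read through its most abundant gene. Among inhibitors it was Dkk3, a secreted glycoprotein of the dickkopf family that is abundant in retina, with a mean of 241 ± 90.8 TPM (SD, n = 40), above Ctnnb1. Dkk3 fell in OIR with anti-ANG-2 and in OIR with anti-VEGFA relative to nOIR at P19. It had 319, 522, 358 and 387 CPM with anti-ANG-2 and 538, 378, 257 and 343 CPM with anti-VEGFA, against 698, 738, 637 and 672 CPM in nOIR. Neither antibody group overlapped with nOIR (folds 0.577 and 0.552, log2 -0.79 and -0.86, adjusted p = 0.022 and 0.028 in edgeR). With the bispecific antibody, at 602, 647, 308 and 369.6 CPM, the groups overlapped and no call was made (log2 -0.51, interval -0.99 to -0.03, adjusted p = 0.41). Against IgG, at 529, 703, 557 and 906 CPM, the differences were not called (log2 -0.77 with anti-ANG-2, adjusted p = 0.16, and -0.83 with anti-VEGFA, adjusted p = 0.3). The anti-VEGFA call was lost without any 1 of 7 of its 8 retinas (adjusted p between 0.05 and 0.16), with folds of 0.539 to 0.611. The anti-ANG-2 call was lost without nOIR replicate 1 or 2 or anti-ANG-2 replicate 1 or 3 (between 0.05 and 0.1, folds 0.58 to 0.613), and without the libraries with outlying TMM factors (0.07). The most abundant ligand was Wnt5b at 2.99 ± 1.73 TPM, below Ndp, and the most abundant receptor was Ryk, a Wnt receptor related to tyrosine kinases, at 15.4 ± 3.64 TPM. Csnk1a1, the kinase that primes β-catenin for destruction, averaged 70.9 ± 13.1 TPM, and Pygo2, a nuclear partner of β-catenin, 18.5 ± 4.45 TPM. None of these 4 was called in any of the 8 main comparisons.

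A further list held 11 genes of barrier endothelium that depend on norrin or β-catenin signals. In OIR with IgG against nOIR 1 of 11 was called higher at P17 (2.36% of all genes called) and 1 at P19 (0.919%), none lower, with medians of 0.39 and 0.47 on the log2 scale (all genes, -0.05 at both ages). At P17 the gene was Slc2a1, the glucose transporter GLUT1, which other retinal cells also use and which low oxygen induces. It had 395, 444, 359 and 377 CPM with IgG, against 269.9, 282, 195 and 228 CPM in nOIR, without overlap (fold 1.62, log2 0.69, interval 0.32 to 1.06, adjusted p = 0.028 in edgeR). The call was lost in limma-trend on TPM (fold 1.28, adjusted p = 0.25), with the pigment epithelium and lens covariates (fold 1.41, adjusted p = 0.58), and without nOIR replicate 3 or 4 or IgG replicate 2 or 3 (adjusted p between 0.056 and 0.19, folds 1.5 to 1.66). The same happened without the libraries with outlying TMM factors (0.057) and without those rich in lens crystallins (0.074). At P19 it was Cldn5, the tight junction protein claudin-5 of vascular endothelium, with 10.5, 8.97, 9.29 and 11.2 CPM with IgG, against 3.44, 4.14, 5.89 and 3.16 CPM in nOIR (fold 2.4, log2 1.27, interval 0.64 to 1.89, adjusted p = 0.034). The call was lost without any 1 of 7 of the 8 retinas (adjusted p between 0.05 and 0.15). It was also lost with the Y-linked covariate (0.079), without the filter on low counts (0.069) and without the libraries rich in lens crystallins (0.062). The fold was 2.22 to 2.49 in these fits. In the 6 comparisons of an antibody with IgG 0 of 11 were called, with medians between -0.41 and -0.25 (all genes, -0.01 to 0.03); the 3 comparisons of an age share their IgG retinas.

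Genes whose log2 CPM ran most closely with 7 of the 8 over the 40 retinas were listed as a description. For Ndp these were Chmp3 (r = 0.779), Cbr4 (0.763) and Mrpl39 (0.75). For Tspan12 they were Anxa5 (0.776), Cavin3 (0.77) and Pdlim4 (0.765), and for Apcdd1 Dlg3 (0.83), Mpp3 (0.819) and Galnt9 (0.783). Spearman rho was 0.699, 0.727 and 0.75 for the Tspan12 genes, and only 0.588, 0.615 and 0.361 for the Apcdd1 genes. Ctnnb1 ran with Rnf14 (0.88), Zfr (0.815) and Wsb2 (0.813). For 3 of the low genes the highest values were smaller: Plekha1 for Lrp5 (0.739), Slitrk3 for Fzd4 (0.606) and Smyd4 for Lef1 (0.536). Each r is over 40 retinas that share library depth and tissue make-up, and was the highest among about 11725 candidate genes. Among the 8 genes themselves, the highest within-group r was 0.55, between Ndp and Ctnnb1 (Spearman rho 0.423, permutation p = 0.023 and 0.033, adjusted p = 0.28 and 0.36), and r was 0.354 without the 2 outermost retinas.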

How the data were processed

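The authors deposited gene-level expected counts and TPM values (transcript abundance scaled for length) for 40 libraries, each from 1 whole retina. Per the submitters' processing notes, STAR 2.7.10a, RSEM 1.3.3 and genome build GRCm38.p4 were used. Per the labels' protocols, the kits were SMART-Seq mRNA for cDNA and Nextera XT for library preparation, and no annotation release is named. Neither molecular identifiers nor strand are mentioned, so reads of a gene are not independent molecules. Intervals and floors based on counts cover counting error only.

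The deposited expected counts, of which 15.7% of the nonzero values were not whole, were rounded. They were filtered with edgeR's filter by group, scaled by TMM and fitted with edgeR 4.0.16 (quasi-likelihood, robust, R 4.3.3) over all 10 groups. Adjusted p-values are Benjamini-Hochberg over 23495 genes within each of 29 comparisons, of which 8 were the main ones: OIR with IgG against nOIR, and each antibody against IgG, at each age. CPM are counts scaled by effective library size. The model's fold is not a ratio of means. Intervals are at 95%, from the quasi-likelihood error and its degrees of freedom. Correlations used log2(CPM + 0.1) centred within groups, averaged over genes for a marker list, with 100000 permutations within groups. The edgeR step was tested on simulated data.

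Alternatives were RLE factors, no filter, the compared groups alone, a replicate block, covariates (pigment epithelium and lens markers, Y-linked genes), limma-trend (limma 3.58.1) on log2(TPM + 1) with and without the filter and on log2(TPM + 0.1), DESeq2 1.42.0, and each library left out in turn. Leaving out 3 libraries with TMM factors under 0.8 or over 1.2 (nOIR replicate 3 at P17, anti-ANG-2 replicate 1 and bispecific replicate 3 at P19), or 4 libraries rich in crystallins, was chosen after seeing the data. The 8 genes, the lists and the tests were chosen with earlier results of these data known. Beside the 8, the text names the genes of the Wnt lists called in a main comparison, the most abundant gene of each list and, for likeness, the 3 genes with the highest r (for Lrp5, Fzd4 and Lef1 the first of them is printed, and for Axin2 the likeness is not reported here). Coordinates are GENCODE M21 (GRCm38) and promoter sequences RefSeq (GRCm38.p6), both matched by symbol. Promoters were searched for 6 of the 8. None was found for Lrp5, and windows on chromosome 18, where Apcdd1 lies, were left out. No 2 libraries held identical values.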

Additional observations from a re-analysis of the deposited data

Results flagged for a closer look

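Of 80 sets of 4 retinas (8 genes in 10 groups), 6 held a retina far from the other 3, its gap to the nearest of them taking most of the group's range. Chance alone gives such a gap in about 1 in 20 sets.

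Fzd4 stood at 6.15 CPM in replicate 2 of OIR with anti-VEGFA at P19, where the others had 0.878 to 1.04 CPM. In the same retina Lrp5 stood at 3.74 CPM, above the others at 0.627 to 0.928 CPM. Lrp5 was also high in replicate 3 of OIR with the bispecific antibody at P17, at 3.17 CPM against 0.129 to 0.468 CPM in the others, and in replicate 3 of that treatment at P19, at 1.67 CPM against 0 to 0.204 CPM. Ctnnb1 reached 353.6 CPM in replicate 1 of OIR with the bispecific antibody at P17, above the others at 309 to 315 CPM. Lef1 was low in replicate 2 of OIR with IgG at P17, at 0.443 CPM, where the others had 1.8 to 2.02 CPM. None of the 32 interaction tests of the 8 genes was called by edgeR.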

How the results depend on the processing

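For the 8 genes in the 8 main comparisons, 1183 of 1273 alternative values kept their sign and stayed uncalled, 85 had the other sign and were uncalled, and 5 were called with the sign of the edgeR fit. DESeq2 gave no adjusted p for some low genes, and those values are not counted. The count of called genes, 0 in edgeR for every comparison, moved in 6. In OIR with IgG against nOIR at P17 it was 1 with the replicate block and with DESeq2, and between 0 and 1 with single libraries left out. In anti-ANG-2 against IgG at P19 it was 1 with limma-trend on log2(TPM + 0.1), and between 0 and 1 with libraries left out. In anti-VEGFA OIR against nOIR at P19 it was 1 with each of the 3 limma-trend fits. In anti-ANG-2 OIR against nOIR at P19 it was 3 with each limma-trend fit, 2 with DESeq2 and between 0 and 2 with libraries left out. In anti-ANG-2 OIR at P19 against P17 it was 2 with each limma-trend fit and between 0 and 1 with libraries left out. In the bispecific antibody against anti-ANG-2 at P19 it was between 0 and 1 with libraries left out. Without replicate 4 of anti-ANG-2 at P19, edgeR called Apcdd1 in 4 of these, and limma-trend called it in 3 of the 4 with that library kept. The causes were not tested. Shares of all genes called by each alternative are not given beside these counts, which are therefore not a result about the 8 genes. In edgeR the share of all genes was 10.7% in anti-ANG-2 OIR against nOIR at P19.

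The replicate numbers of the titles were used as a block, which called Tspan12 at P17 in OIR with IgG against nOIR (adjusted p = 0.041) and changed no other call of the 8 genes. Libraries with the same number had a mean correlation of 0.0205 of their deviations from the group means, against -0.00682 for other pairs, with 18 of 180 same-number pairs above 0.1. Since most such pairs were at or under 0.1, the numbers were not taken as pairs. Correlations of each library with those of other groups were also averaged by number. Of 40 libraries, 20 had their highest mean with their own number. Equal odds over the 4 numbers would give 10, a hint from the data and not from the design. Depth limits Lrp5, Fzd4, Lef1 and Axin2 most, at 16.6 to 49.4 counts per library.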
